A study of Mus musculus with 3 samples.

Results

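The insulin-like growth factor (IGF) genes described here are 10 of the 32285 genes in the count tables: the ligands Igf1 and Igf2, the receptors Igf1r and Igf2r, and the binding proteins Igfbp2, Igfbp3, Igfbp4, Igfbp5, Igfbp6 and Igfbp7. They were chosen by name from the ligands, receptors and secreted binding proteins of the pathway, and all 10 were found in the tables. Igfbp1 was not among the 10. Their raw counts of unique molecular identifiers (UMIs, each standing for 1 captured RNA molecule) were described by cell class, by fibroblast cluster and by day. The 3 libraries came from mouse hind paws in K/BxN serum transfer arthritis, in which serum of arthritic K/BxN mice brings on joint inflammation. They were stromal cells at day 5 after serum transfer, stromal cells at day 0, which the labels call steady state, and myeloid cells at day 9. Stromal cells were sorted as CD45-negative and myeloid cells as CD45-positive, CD11b-positive and Ly6G-negative, after skin, muscles and tendons had been removed and the tissue digested with collagenase IV and DNase. The number of mice pooled into each library, and their strain, sex and age, are not given in the sources used here.

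IGF1 and IGF2 are secreted peptides that signal for growth and survival through IGF1R, a receptor tyrosine kinase related to the insulin receptor. IGF2R, also the cation-independent mannose 6-phosphate receptor, carries lysosomal enzymes and takes up IGF2 for degradation. The secreted IGF-binding proteins hold the ligands in the blood and the matrix, and proteases such as PAPP-A release them. In the joint and in bone, mesenchymal cells make both ligands and several of the binding proteins, and osteoblasts respond to them.

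The promoters of Igfbp4 and Igfbp5 are shown because these binding proteins went opposite ways in the fibroblast cluster led by Saa3 at day 5. Each sequence is 300 bases from RefSeq on GRCm38.p6, written 5′ to 3′ on the strand of the gene, from 250 bases before the annotated start to 50 bases after it. Igfbp4 lies on the plus strand at chr11:99040994-99041293, and Igfbp5 on the minus strand at chr1:72874816-72875115. Capitals mark TATAAA, searched on both strands.

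Igfbp4 promoter: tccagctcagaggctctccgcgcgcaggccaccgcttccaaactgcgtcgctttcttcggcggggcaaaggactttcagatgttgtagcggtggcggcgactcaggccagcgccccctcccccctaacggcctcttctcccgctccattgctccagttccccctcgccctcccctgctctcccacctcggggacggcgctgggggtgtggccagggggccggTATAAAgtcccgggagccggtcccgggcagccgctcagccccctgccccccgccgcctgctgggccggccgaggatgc

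Igfbp5 promoter: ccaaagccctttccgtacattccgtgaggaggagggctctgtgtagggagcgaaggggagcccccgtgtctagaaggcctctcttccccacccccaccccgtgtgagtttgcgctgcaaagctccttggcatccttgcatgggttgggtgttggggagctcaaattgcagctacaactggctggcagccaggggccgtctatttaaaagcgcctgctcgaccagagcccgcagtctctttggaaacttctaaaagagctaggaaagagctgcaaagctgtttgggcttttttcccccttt

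TATAAA was found once in the Igfbp4 window, at position 223 counted from its first base, and not in the Igfbp5 window. It was present in 13.6% of 32851 promoter windows of this length. Neither window held TTCNNNGAA, a pattern bound by STAT factors and present in 8.3% of windows. The GC content was 71.3% for Igfbp4 and 56.3% for Igfbp5, against a median of 52.7% over all windows. These matches describe the letters of each window only. Promoter windows were found for 10 of the 10 genes.

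The deposited tables held 11900 barcodes and 122224428 UMIs for stromal day 5, 7740 barcodes and 77842586 UMIs for stromal day 0, and 7795 barcodes and 69430907 UMIs for myeloid day 9. Filtering left 10186 cells at stromal day 5, 6912 at stromal day 0 and 5574 in the myeloid library, whose cells had a median of 9114.5, 9659.5 and 6398 UMIs. Between 22 and 35 barcodes were shared by each pair of libraries. Each group was 1 library, so a difference between days cannot be told apart from a difference between libraries, and no test was made. Levels are given as CPM, the UMIs of a gene per 1000000 UMIs of all genes in the same cells. Every interval is an exact 95% interval for counting error alone. A ratio of at least 1.5, or its inverse, is used as a size and not as a call of significance, and genes with fewer than 20 counts over the libraries compared were not given a ratio size. Fewer RNA molecules of a gene per cell and fewer cells making it are both contained in a class sum; shares of cells with a UMI are therefore given after each cell was thinned to 2000 UMIs.

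Names of cell classes rest on RNA markers and are written without "like" from here on: fibroblast-like, tenocyte-like, osteoblast-like and blood endothelial-like cells among the stromal libraries, and macrophage-like and other classes in the myeloid library. Fibroblasts numbered 6644 cells at day 5 and 4377 at day 0, tenocytes 889 and 753, osteoblasts 471 and 447, and blood endothelial cells 57 and 93. The defining markers were present: Fmod, a tendon matrix proteoglycan, measured 3963 CPM at day 5 and 3968 CPM at day 0 in tenocytes, and Ibsp, bone sialoprotein, 10128 and 9228 CPM in osteoblasts. Ptprc, which encodes CD45, was at 0 counts in fibroblasts on both days, and the 5 erythroid markers summed to 65.7 CPM at day 5 and 10.1 CPM at day 0 there. Tenocytes were present although tendons had been removed. Fibroblast clusters are called by a leading gene or by number. Genes said to lead a numbered stromal cluster did so against all other stromal cells, unless stated otherwise. The Saa3 cluster, led by a serum amyloid gene, had 1126 cells at day 5 and 17 at day 0; the Pi16 cluster had 597 and 770 cells, the Scg3 cluster 657 and 706, and the Prg4 lining cluster, rich in lubricin RNA, 217 and 152. The other 7 fibroblast clusters had no marker name. The 10 genes and the other pathway genes were left out of the variable genes used for clustering, so their levels did not define the clusters.

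Igf1 came mostly from fibroblasts in the stromal libraries and was lower at day 5 in fibroblasts, tenocytes and osteoblasts, by less than 1.5-fold in each. Fibroblasts gave 83.3% of the Igf1 UMIs of the stromal library at day 5 (interval 83.1 to 83.6) and 82.4% at day 0 (82.1 to 82.6), while they held 67.2% and 65.6% of all UMIs. In fibroblasts Igf1 measured 1064 CPM at day 5 and 1387 CPM at day 0, a ratio of 0.77 (0.76 to 0.77). The level at day 5 was the lower one. The share of thinned fibroblasts with an Igf1 UMI was 71.3% at day 5 and 75.3% at day 0. Tenocytes had 267.7 CPM at day 5 and 356.6 CPM at day 0 (ratio 0.75, 0.71 to 0.80), and osteoblasts 96.4 CPM and 119.5 CPM (ratio 0.81, 0.71 to 0.92). In the 57 blood endothelial cells of day 5 Igf1 measured 131.2 CPM, against 237.9 CPM in 93 cells of day 0 (ratio 0.55, 0.43 to 0.71).

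Fibroblast RNA in the other classes was measured beside Igf1. Pi16, a fibroblast gene, stood in tenocytes at 7.6% of its fibroblast level at day 5 and 9.1% at day 0, in osteoblasts at 2.8% and 1.2%, and in endothelial cells at 5.0% and 3.6%. Igf1 stood in tenocytes at 25.2% and 25.7% of its fibroblast level, in osteoblasts at 9.1% and 8.6%, and in endothelial cells at 12.3% and 17.2%. Igf1 was thus above the Pi16 share in each of these classes on both days. Pdgfra, another fibroblast gene, measured 423.9 CPM at day 5 and 405.5 CPM at day 0 in fibroblasts. It measured 133.1 and 151.1 CPM in tenocytes, 121.7 and 116.0 CPM in osteoblasts, and 34.3 and 11.2 CPM in endothelial cells. Relative to fibroblasts, Pdgfra was above Igf1 in tenocytes and osteoblasts and below it in endothelial cells. The part of fibroblast RNA in these Igf1 levels was not tested.

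Among fibroblast clusters Igf1 was highest in cluster 9, led by Lpl and Cntn1, on both days. This cluster had 1704 CPM at day 5, against 935.4 CPM in the other fibroblasts (ratio 1.82, 1.79 to 1.85), and 2429 CPM at day 0, against 1239 CPM (ratio 1.96, 1.92 to 2.00). The Prg4 lining cluster was at the other end, with 97.3 CPM at day 5 against 1109 CPM in the other fibroblasts, and 60.7 CPM at day 0 against 1470 CPM. Only 8.5% of thinned lining cells at day 5 and 7.2% at day 0 had an Igf1 UMI. The Saa3 cluster of day 5 had 1091 CPM, close to the 1055 CPM of the other fibroblasts of that day (ratio 1.03, 1.02 to 1.05).

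The day ratio of Igf1 was below 1 in 9 of the 10 fibroblast clusters with enough cells on both days. It ran down to 0.57 in cluster 13, led by Ccbe1 and C4b, which had 1120 CPM at day 5 and 1955 CPM at day 0 (0.54 to 0.61). Cluster 21, led by Il6, had a ratio of 0.66, and cluster 12, led by F3 and C2, also 0.66. The lining cluster went the other way, with a ratio of 1.60 (1.32 to 1.95). Pi16 in the lining cluster was also higher at day 5, with 164.8 CPM, against 23.1 CPM for day 0, which is 13.01% and 1.55% of the fibroblast level; Igf1 in the lining cluster was at 9.15% and 4.37% of the fibroblast level. The part of RNA from other fibroblasts in the lining ratio was not tested.

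Igf2, the growth factor known best for its imprinted expression before birth, was measured at low levels. Fibroblasts had 36.6 CPM at day 5 and 40.5 CPM at day 0 (ratio 0.90, 0.85 to 0.96), and osteoblasts had 45.1 CPM and 38.8 CPM (ratio 1.16, 0.93 to 1.45). Tenocytes were lower, with 7.0 CPM at day 5 and 9.9 CPM at day 0 (ratio 0.71, 0.49 to 1.01). The unnamed cluster 6, led by Edil3 and H19, had 119.5 CPM at day 5 and 140.5 CPM at day 0 (ratio 0.85, 0.77 to 0.94). The smaller unnamed cluster 15, led by Mfap4 and Eln, had 128.9 CPM at day 5. H19 is the neighbouring imprinted RNA gene of Igf2. Cluster 12 led the named or numbered fibroblast clusters, with 69.4 CPM at day 5, against 35.2 CPM in the other fibroblasts, and 99.3 CPM at day 0, against 38.6 CPM. The lining cluster had only 18 counts of Igf2 at day 5 and 7 at day 0.

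Igf1r differed little between days in fibroblasts, tenocytes and osteoblasts, and was at a like level in them. Fibroblasts had 104 CPM at day 5 and 92.9 CPM at day 0 (ratio 1.12, 1.08 to 1.16), tenocytes 116.8 CPM and 98.2 CPM (ratio 1.19, 1.08 to 1.31), and osteoblasts 112.6 CPM and 114.2 CPM (ratio 0.99, 0.86 to 1.12). Blood endothelial cells had 61.3 CPM at day 5, from 50 counts, and 98.0 CPM at day 0, from 70 counts (ratio 0.63, 0.43 to 0.91). None of the 10 fibroblast clusters reached 1.5-fold. The ratios ran between 0.94 in cluster 13 and 1.40 in cluster 5, which was led by Lhx2 and Hand2os1 against the other fibroblasts. The receptor RNA was thus present at a similar level where Igf1 was high and where it was low: the lining cluster had 91.6 CPM of Igf1r at day 5, against 104.6 CPM in the other fibroblasts, and 83.7 CPM at day 0, against 93.5 CPM.

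Igf2r was highest in osteoblasts among the named stromal classes. Osteoblasts had 156.3 CPM at day 5, against 43.6 CPM in fibroblasts (ratio 3.58, 3.29 to 3.90), and 121.8 CPM at day 0, against 43.9 CPM (ratio 2.77, 2.51 to 3.07). Within osteoblasts the day ratio was 1.28 (1.14 to 1.45), and within fibroblasts 0.99 (0.94 to 1.05). Tenocytes had 49.0 CPM at day 5 and 47.7 CPM at day 0. In the lining cluster Igf2r measured 42.4 CPM at day 5 and 26.8 CPM at day 0 (ratio 1.58, 1.18 to 2.13).

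**Figure D1:**
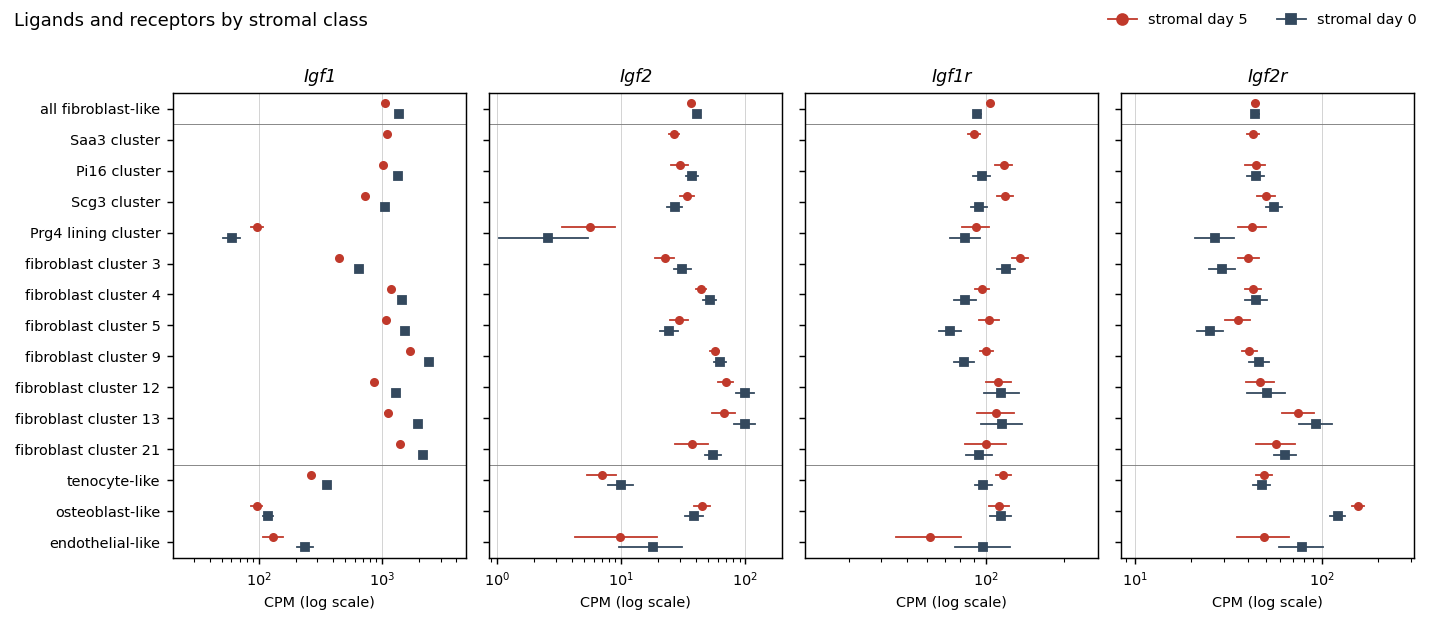
Levels of Igf1, Igf2, Igf1r and Igf2r in stromal classes and fibroblast clusters with at least 50 cells, in CPM on a log axis; points are 1 library each, with day 5 above day 0, bars are exact 95% Poisson intervals, and an open triangle marks the upper limit where no count was seen. Igf1 spans from 96.4 CPM in osteoblasts and 97.3 CPM in the lining cluster to 1704 CPM in cluster 9 at day 5. Igf1r at day 5 is at 61.3 CPM in blood endothelial cells and 116.8 CPM in tenocytes.

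In fibroblasts few of the genes differed by 1.5-fold between days. Of the 10 genes, 1 was at least 1.5-fold higher at day 5 in fibroblasts (Igfbp2) and 1 at least 1.5-fold lower (Igfbp5); over all 14981 genes measured there, 8.83% were higher and 8.39% lower by that size. The share of the 10 genes past this size was near that of all genes. Their median log2 ratio was 0.06. In tenocytes 1 of 10 was higher (Igfbp2) and none lower, against 10.5% and 9.73% of all genes. In osteoblasts none of 9 measured genes was higher and 2 were lower (Igfbp2 and Igfbp5), against 8.11% and 5.81%.

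Igfbp5, a binding protein that attaches to matrix and bone mineral, was lower at day 5 in fibroblasts, osteoblasts and tenocytes. Fibroblasts had 1399 CPM at day 5 and 2214 CPM at day 0 (ratio 0.63, 0.63 to 0.64), and the share of thinned fibroblasts with a UMI was 53.3% at day 5 and 63.5% at day 0. Osteoblasts had 885.3 CPM and 1371 CPM (ratio 0.65, 0.62 to 0.67), and tenocytes 2143 CPM and 2508 CPM (ratio 0.85, 0.84 to 0.87). Without the Saa3 cluster the fibroblast ratio was 0.71 and no longer past 1.5-fold. It was 0.71 also with each fibroblast cluster given equal weight. At day 0 the Saa3 cluster had fewer than the 50 cells needed for a comparison by day. The equal-weight value was thus not shown to be separate from leaving that cluster out. Among the 10 clusters the ratio was below 1 in 8. It was 0.41 in cluster 12, with 1488 CPM at day 5 and 3663 CPM at day 0, and 1.09 in cluster 21.

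Igfbp5 was highest in the Pi16 cluster among the named clusters. The Pi16 cluster had 2923 CPM at day 5, against 1260 CPM in the other fibroblasts (ratio 2.32, 2.28 to 2.36), and 4475 CPM at day 0, against 1746 CPM (ratio 2.56, 2.53 to 2.60). The lining cluster had 2631 CPM at day 5, against 1341 CPM, and 3398 CPM at day 0, against 2141 CPM. The Saa3 cluster had less Igfbp5 than the other fibroblasts of day 5, at 863.1 CPM against 1572 CPM (ratio 0.55, 0.54 to 0.56).

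Igfbp4, the substrate of PAPP-A best known among these proteins, had a direction in fibroblasts that depended on the Saa3 cluster and on other settings. In all fibroblasts it measured 1488 CPM at day 5 and 1362 CPM at day 0 (ratio 1.09, 1.08 to 1.10). Without the Saa3 cluster it measured 1206 CPM at day 5 and 1361 CPM at day 0 (ratio 0.89, 0.88 to 0.90). Leaving out this cluster was 1 of 17 alternative settings, and the direction was the same in 11 of them. The Saa3 cluster itself had 2362 CPM of Igfbp4, against 1206 CPM in the other fibroblasts of day 5 (ratio 1.96, 1.93 to 1.98), and gave 30.7% of the Igfbp4 UMIs of the day 5 library while holding 16.4% of all its UMIs. Cluster 12 was higher still, with 3102 CPM at day 5 and 2010 CPM at day 0 (ratio 1.54, 1.48 to 1.61). Of the 10 clusters compared by day, 8 had a ratio below 1. Osteoblasts had 329.5 CPM at day 5 and 263.5 CPM at day 0 (ratio 1.25, 1.15 to 1.36), but the direction turned under 3 of 12 alternative settings, with a ratio of 0.90 under the looser cell filter.

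In the Saa3 cluster at day 5, Igfbp4 and Igfbp2 were higher and Igfbp3, Igfbp5 and Igfbp6 lower than in the other fibroblasts by at least 1.5-fold. These are 2 higher and 3 lower of 10 genes, against 13.2% higher and 27.2% lower of 14200 genes measured in that comparison. Igfbp2 had 1.57 CPM in the Saa3 cluster and 0.431 CPM in the other fibroblasts (ratio 3.63, 2.00 to 6.63), Igfbp3 37.1 CPM and 74.9 CPM (ratio 0.50), and Igfbp6 919 CPM and 1627 CPM (ratio 0.56, 0.55 to 0.57). The Saa3 cluster had 17 cells at day 0, under the 50 needed for a comparison by day.

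Igfbp6, which binds IGF2 in preference to IGF1, was lower at day 5 by a little under 1.5-fold in fibroblasts, tenocytes and osteoblasts. Fibroblasts had 1454 CPM at day 5 and 2095 CPM at day 0 (ratio 0.69, 0.69 to 0.70), tenocytes 3304 CPM and 4885 CPM (ratio 0.68, 0.67 to 0.69), and osteoblasts 551.7 CPM and 826.5 CPM (ratio 0.67, 0.63 to 0.70). The clusters did not share this direction: the ratio was above 1 in 5 of 10 and below 1 in 5. The Scg3 cluster stood out for its level, with 4654 CPM at day 5, against 1126 CPM in the other fibroblasts (ratio 4.13, 4.08 to 4.19), and 5282 CPM at day 0, against 1453 CPM (ratio 3.64, 3.59 to 3.68). Tenocytes had 2.27-fold the Igfbp6 level of fibroblasts at day 5 and 2.33-fold at day 0.

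Igfbp7, a binding protein of low affinity for IGFs that is abundant around vessels, was highest in blood endothelial cells among the classes and clusters with at least 50 cells. These had 4536 CPM at day 5, against 1774 CPM in fibroblasts (ratio 2.56, 2.47 to 2.64), and 5432 CPM at day 0, against 1426 CPM (ratio 3.81, 3.69 to 3.94). Tenocytes came next, with 3367 CPM at day 5 and 3759 CPM at day 0. In fibroblasts the day ratio was 1.24 (1.23 to 1.26), and in the lining cluster 1.87 (1.75 to 2.00), with 878.8 CPM at day 5 and 469 CPM at day 0. The Pi16 cluster was low, with 540.7 CPM at day 5, against 1887 CPM in the other fibroblasts, and 506.4 CPM at day 0, against 1616 CPM.

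Igfbp3, the main carrier of IGFs in blood, was high in few fibroblast clusters and was at least 1.5-fold higher at day 5 in 5 of 10. Cluster 12 had 376.6 CPM at day 5, against 52.3 CPM in the other fibroblasts (ratio 7.19, 6.72 to 7.70), and 405.5 CPM at day 0, against 37.7 CPM (ratio 10.7, 9.77 to 11.8). The Pi16 cluster was at 2.37 CPM at day 5, against 71.4 CPM, and 4.96 CPM at day 0, against 58.6 CPM. Cluster 4 had haemoglobin genes and Penk among its leading genes against the other fibroblasts. The day ratio of Igfbp3 was 2.66 (2.13 to 3.34) in cluster 5 and 2.23 (1.91 to 2.61) in cluster 4, but 0.48 (0.24 to 0.90) in the Pi16 cluster. In all fibroblasts it measured 65.6 CPM at day 5 and 49.4 CPM at day 0 (ratio 1.33, 1.26 to 1.40), and without the Saa3 cluster the ratio was 1.52 (1.45 to 1.61). Without that cluster 2 of the 10 genes (Igfbp2 and Igfbp3) were higher at day 5 by 1.5-fold and none lower, against 8.98% and 7.55% of all genes. Over the 10 clusters, between 7.09% and 11.3% of all genes were higher, and between 6.71% and 12.6% lower, by 1.5-fold.

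Igfbp2 was highest in osteoblasts among the named stromal classes, and it was lower there at day 5. Osteoblasts had 14.8 CPM at day 5 and 48.4 CPM at day 0, from 62 and 192 counts (ratio 0.31, 0.23 to 0.41). The day 5 level in osteoblasts was 20.9-fold that of fibroblasts (14.2 to 31.0), and the day 0 level 202-fold (110 to 411). Osteoblasts gave 32.5% of the Igfbp2 UMIs of the day 5 library (25.9 to 39.6) and 81.4% of those of day 0 (75.8 to 86.1). The unnamed stromal clusters together gave 31.9% at day 5 and 11.4% at day 0, and fibroblasts 26.2% and 4.7%. The share of thinned osteoblasts with a UMI was 2.8% at day 5 and 5.4% at day 0. In fibroblasts Igfbp2 had 50 counts at day 5 and 11 at day 0, or 0.71 CPM and 0.24 CPM (ratio 2.95, 1.52 to 6.29), and in tenocytes 18 and 5 counts (ratio 3.52, 1.26 to 12.1). The level in both classes was far below that of osteoblasts. Of the 50 fibroblast counts of day 5, 27 were in the Saa3 cluster. The fibroblast ratio was 1.79 without that cluster (0.84 to 4.07). It was 1.16 with equal weight for each cluster and 1.00 with equal weight for each sub-cluster. The size of the ratio in fibroblasts thus differed between these settings. The Saa3 cluster had 17 cells at day 0, under the 50 needed for a comparison by day. The part of the weighting, apart from that of this cluster, was not tested.

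**Figure D2:**
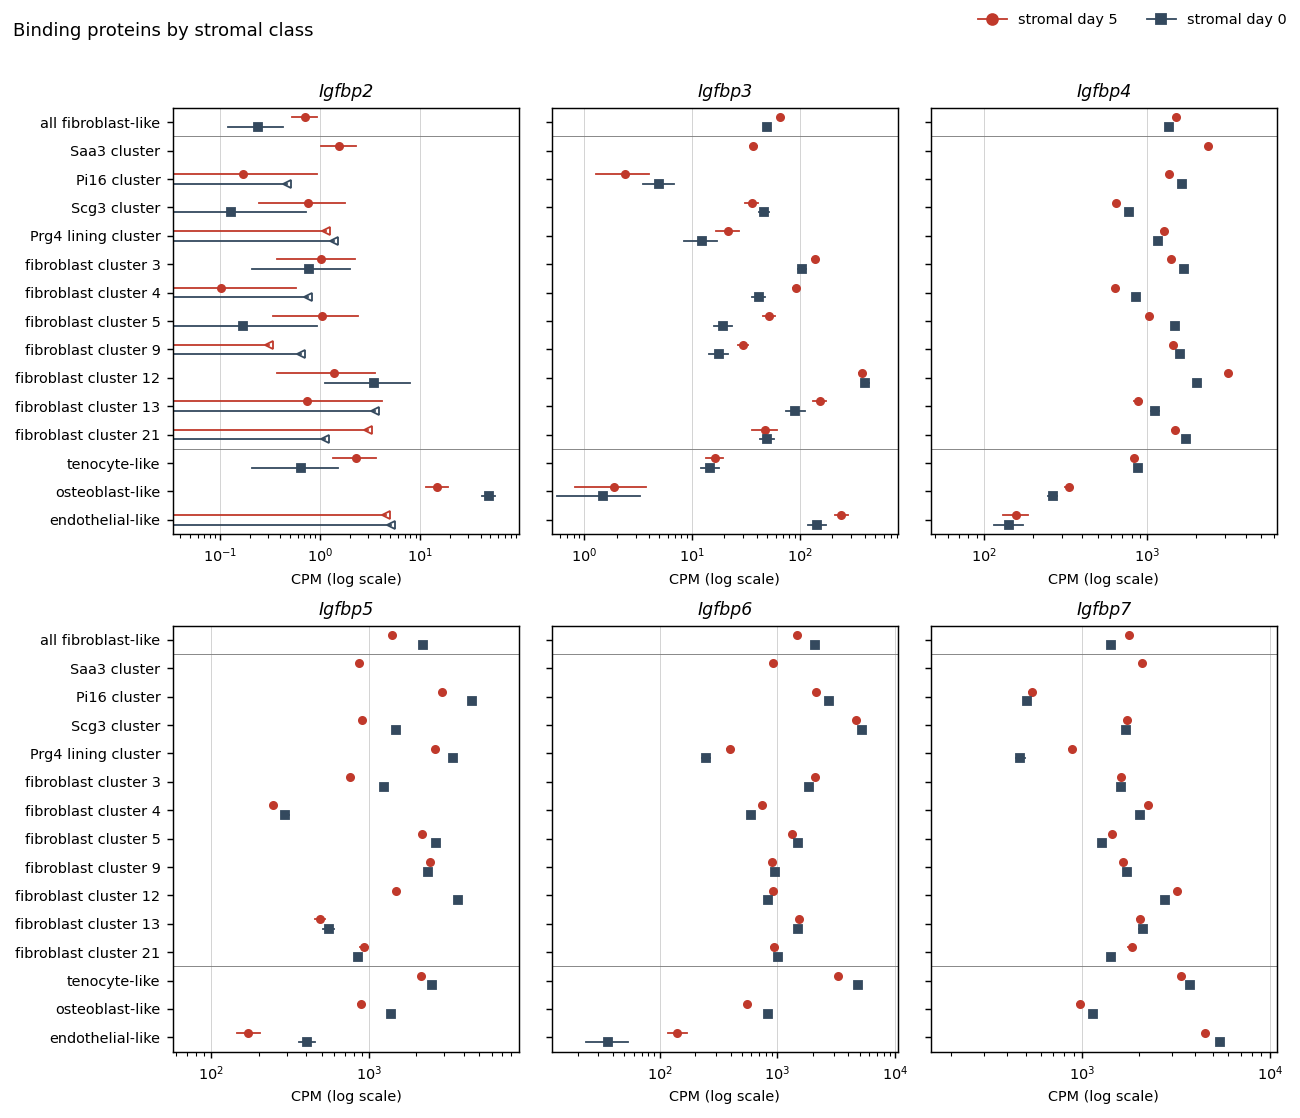
Levels of Igfbp2 to Igfbp7 in the same stromal classes and clusters, in CPM on a log axis, with day 5 above day 0; points are 1 library each, bars are exact 95% Poisson intervals, and an open triangle marks the upper limit where no count was seen. Igfbp2 is highest in osteoblasts, Igfbp6 in the Scg3 cluster and Igfbp7 in blood endothelial cells.

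Blood endothelial cells were few, and 20.3% of 7740 genes were at least 1.5-fold higher and 21.9% lower at day 5 there. Of 9 measured genes of the family, 2 were higher (Igfbp3 and Igfbp6) and 5 lower (Igf1, Igf2, Igf1r, Igf2r and Igfbp5). The values of Igf1 and Igf1r are given above. Igf2 measured 9.81 CPM at day 5 and 18.19 CPM at day 0, from 8 and 13 counts (ratio 0.54, 0.19 to 1.40). Igf2r measured 49.1 CPM at day 5 and 78.4 CPM at day 0, from 40 and 56 counts. Igfbp3 measured 242.9 CPM at day 5 and 145.5 CPM at day 0 (ratio 1.67, 1.31 to 2.14), Igfbp6 141.1 CPM and 36.4 CPM (ratio 3.88, 2.52 to 6.18), and Igfbp5 171.7 CPM and 407.2 CPM (ratio 0.42, 0.34 to 0.52). The 8 fibroblast markers summed to 3177 CPM at day 5 and 654.9 CPM at day 0 in these cells, and the 6 cycling markers to 490.6 CPM and 0 CPM. The part of fibroblast RNA or of cycling cells in these ratios was not tested.

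**Figure D3:**
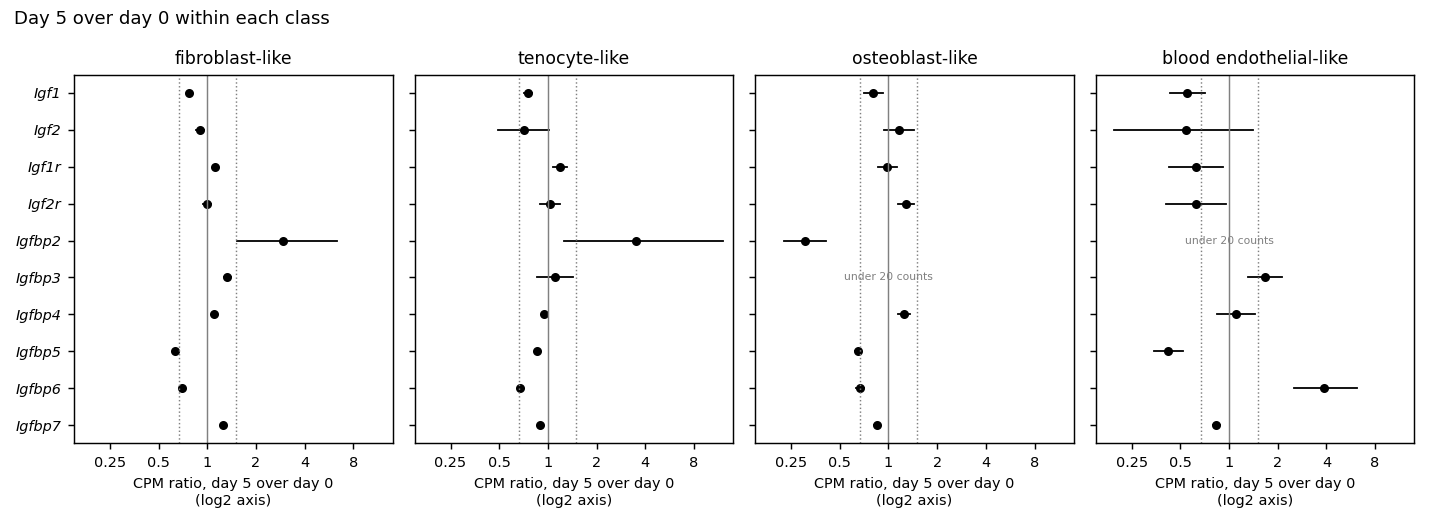
Ratio of the day 5 level over the day 0 level of each of the 10 genes in stromal classes, on a log axis; bars are exact 95% intervals for counting error and dotted lines mark 1.5-fold in either direction. Igfbp5 lies below 1 in each class, while Igfbp2 lies at 2.95 in fibroblasts and 0.31 in osteoblasts.

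Among the 10 fibroblast clusters compared by day, the Prg4 lining cluster had the most genes that were at least 1.5-fold higher at day 5. Of 9 measured genes, 6 were at least 1.5-fold higher (Igf1, Igf2, Igf2r, Igfbp3, Igfbp6 and Igfbp7) and none lower, against 10.3% and 7.71% of 10281 genes. The interval of Igf2 there held 1, at 0.86 to 6.14. Each of these 6 genes was lower in the lining cluster than in the other fibroblasts at day 0, by ratios between 0.04 for Igf1 and 0.60 for Igf2r, and the Pi16 values of this cluster are given above. Igfbp5, which was higher in the lining cluster than in the other fibroblasts, had a day ratio of 0.77 (0.75 to 0.80), with 2631 CPM at day 5 and 3398 CPM at day 0.

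Some large stromal clusters stayed unnamed because markers of another class were among their leading genes. Clusters 6 and 8 had tenocyte markers and cluster 14 a lymphatic marker among them. In cluster 6 Igfbp5 measured 1840 CPM at day 5 and 3432 CPM at day 0 (ratio 0.54, 0.52 to 0.55), and Igf1 677.4 CPM and 916.5 CPM (ratio 0.74, 0.71 to 0.77). In cluster 8, led by Kera and Tnmd, Igfbp3 measured 73.9 CPM at day 5 and 155.8 CPM at day 0 (ratio 0.47, 0.40 to 0.56), and Igfbp5 399.6 CPM and 806.3 CPM (ratio 0.50, 0.46 to 0.53). In cluster 14, led by Hmcn2 and Smoc2, Igfbp4 measured 1427 CPM at day 5 and 782.3 CPM at day 0 (ratio 1.82, 1.67 to 1.99), and Igf1r 157 CPM and 99.5 CPM (ratio 1.58, 1.23 to 2.04). Igf1 and Igfbp5 were below 1 in each of these 3 clusters, and Igfbp4 was below 1 in clusters 6 and 8, at 0.77 and 0.91.

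**Figure D4:**
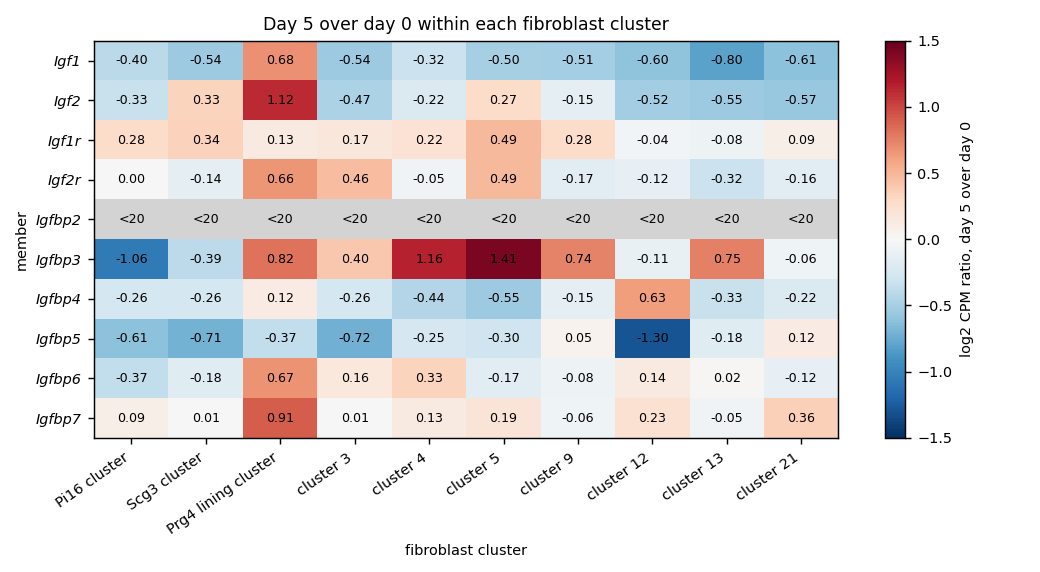
Heat map of the log2 ratio of day 5 over day 0 for each of the 10 genes in 10 fibroblast clusters; grey cells had fewer than 20 counts over both days. Igf1 is negative in 9 of 10 clusters and positive in the lining cluster (18), and Igfbp3 differs in sign between clusters.

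In the myeloid library at day 9 Igf1 was highest in the Lyve1 Cd163 macrophages, and also high in the Vsig4 Gpr34 macrophages. The library held 1503 Igf1 UMIs, or 27.9 CPM. The 153 Lyve1 Cd163 macrophages, led by the scavenger receptor Cd163 and the hyaluronan receptor Lyve1, had 281.6 CPM (243.8 to 323.7; 198 counts), against 24.5 CPM in the other myeloid cells, a ratio of 11.47 (9.83 to 13.3). The 457 Vsig4 Gpr34 macrophages had 154.3 CPM (139.7 to 170.0; 410 counts), against 21.3 CPM in the other cells (ratio 7.23, 6.44 to 8.10). The unnamed cluster 9.0, led by Ccl12, Ch25h and Tppp3, had 184.6 CPM (159.0 to 213.1; 186 counts). Igf1 was also found in the unnamed clusters 9.3, with 58 counts in 39 cells, and 9.1, with 41 counts in 93 cells. The share of thinned cells with an Igf1 UMI was 37.1% (28.9 to 46.0) in Lyve1 Cd163 macrophages and 19.5% (15.9 to 23.6) in Vsig4 Gpr34 macrophages.

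Other myeloid classes had less Igf1. Arg1 macrophages had 24.5 CPM, Il1b Thbs1 macrophages 3.99 CPM, monocytes 0.74 CPM from 2 counts, and osteoclast-lineage cells 0.66 CPM from 7 counts. Migratory dendritic cells had 0 counts, where 3 counts would have been 4.08 CPM. MHC class II macrophages were split, with 52.5 CPM in cluster 6, led by Apoe and Ms4a7, and 8.77 CPM in cluster 16, led by Cxcl13 and Il1b. The intervals of these classes lay below those of the Lyve1 Cd163 and Vsig4 Gpr34 macrophages.

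Stromal RNA in this library was measured beside Igf1. Igf1 numbered 2200 UMIs per 100 UMIs of Col1a1, Col1a2, Col3a1, Dcn and Pdgfra summed in Lyve1 Cd163 macrophages and 3727 in Vsig4 Gpr34 macrophages. The same ratio was 2.77 in fibroblasts of day 5, 3.60 in fibroblasts of day 0, and 1.38 in myeloid cluster 9.4, which was led by Col1a2 and Col1a1. The Lyve1 Cd163 macrophages held 9 stromal marker UMIs in all. Cluster 11, which had 94.8 CPM of Igf1, was led by the endothelial genes Fabp4 and Plvap, and it held 1404 CPM of Igfbp7.

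Other genes of the family were spread differently over myeloid cells. In Lyve1 Cd163 macrophages 4 of 7 measured genes were at least 1.5-fold higher than in the other myeloid cells and 3 lower, against 26.0% and 32.6% of all genes. Igfbp4 measured 266 CPM there, against 31.8 CPM in the other cells (ratio 8.37, 7.16 to 9.74), and Igf2r 4.27 CPM, against 93.9 CPM. Igf2r was high in osteoclast-lineage cells, at 134.8 CPM against 82.4 CPM (ratio 1.64, 1.54 to 1.74), and in unnamed cluster 4, led by Jdp2 and Gja1, at 150.3 CPM. Igfbp6 was high in monocytes, at 68.1 CPM against 12.4 CPM (ratio 5.48, 4.63 to 6.46), but not in them alone. The 448 monocytes held 185 Igfbp6 counts, the 374 Il1b Thbs1 macrophages 142, and the 135 cells of unnamed cluster 9.2 held 55. Igf2 had 10 counts, Igfbp3 8 and Igfbp2 0 in the whole myeloid library.

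**Figure D5:**
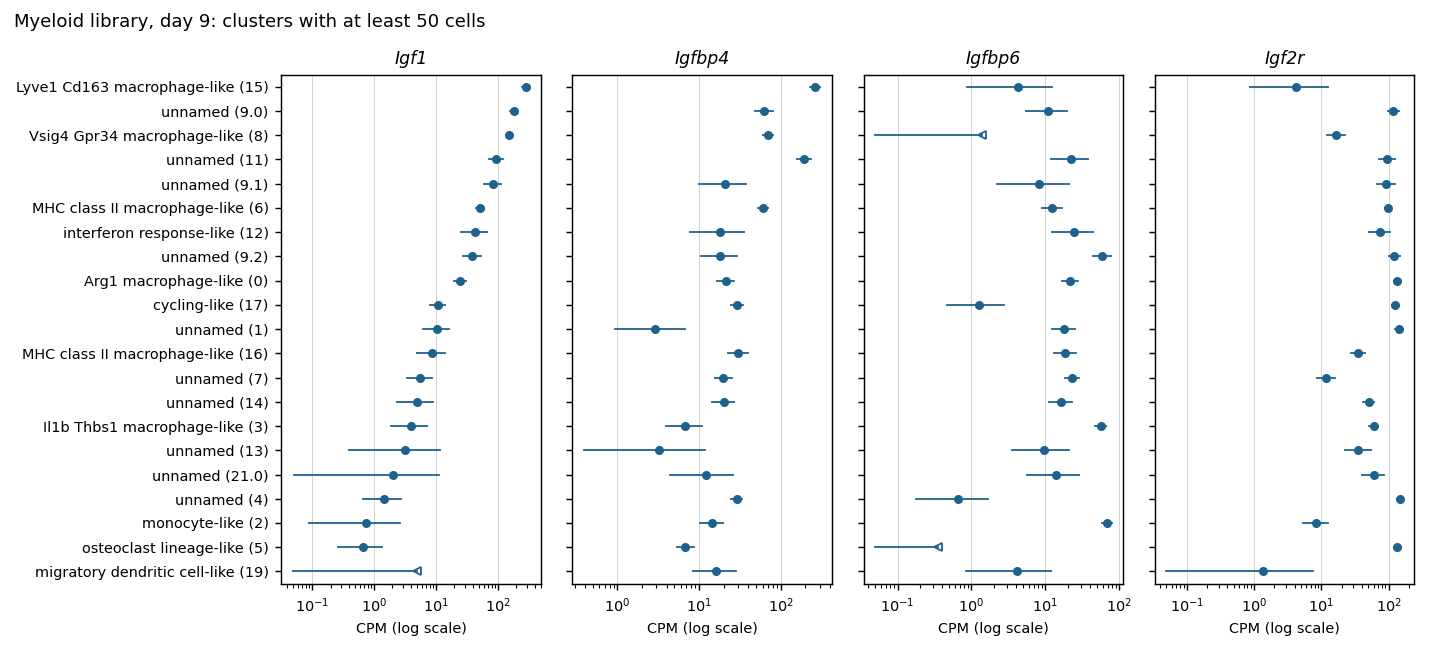
Levels of Igf1, Igf2r, Igfbp4 and Igfbp6 in the myeloid clusters of day 9 with at least 50 cells, in CPM, ordered by Igf1; points are 1 library, with exact 95% Poisson intervals, and an open triangle marks the upper limit where no count was seen. The Lyve1 Cd163 macrophages (15) lead for Igf1 with 281.6 CPM and Igfbp4 with 266 CPM, and Igf2r is low in them.

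The other genes of the pathway, 37 in all from a list of carriers, proteases, growth hormone signalling, receptor adaptors and intracellular signalling, differed little between days in fibroblasts. Of 33 measured, 4 were at least 1.5-fold higher at day 5 and 2 lower, against 8.83% and 8.39% of all genes, and their median log2 ratio was -0.01. The protease genes Adam12, with 4.86 CPM at day 5 and 1.66 CPM at day 0 (ratio 2.93, 2.28 to 3.81), and Adamts1, at 339.9 CPM and 215.1 CPM (ratio 1.58, 1.54 to 1.62), were higher. Igfals, which encodes the acid-labile subunit of the circulating IGF complex, had 4.69 CPM and 2.40 CPM (ratio 1.96, 1.57 to 2.45), and Grb14, an adaptor that inhibits insulin receptor signalling, 8.17 CPM and 4.53 CPM (ratio 1.80, 1.54 to 2.12).

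Stc1 and Cfd were the genes that were lower. Stc1, stanniocalcin-1, a relative of the PAPP-A inhibitor stanniocalcin-2, had 27.8 CPM at day 5 and 59.2 CPM at day 0 (ratio 0.47, 0.44 to 0.50), and Cfd, complement factor D, 2.27 CPM and 4.34 CPM (ratio 0.52, 0.42 to 0.65). The protease gene Pappa was at 17.03 CPM and 11.62 CPM (ratio 1.47, 1.32 to 1.63), just short of the size. Among the roles with no gene past 1.5-fold, the gene of highest level was Ghr, the growth hormone receptor, at 121 CPM and 126.6 CPM, Pik3r1, a regulatory subunit of PI3-kinase, at 234.1 CPM and 162.8 CPM (ratio 1.44, 1.40 to 1.48), and Plagl1, an imprinted transcription factor, at 23.6 CPM and 24.1 CPM. Htra1, a secreted protease, was the highest of the proteases, at 445.1 CPM and 487.3 CPM, and Grb10, an imprinted adaptor, of the receptor adaptors, at 91.3 CPM and 67.6 CPM (ratio 1.35, 1.29 to 1.41). In osteoblasts 3 of 30 measured genes were higher and 1 lower, against 8.11% and 5.81% of all genes. Stc2, stanniocalcin-2, had 100.9 CPM at day 5 and 39.8 CPM at day 0 (ratio 2.53). In tenocytes 5 of 28 were higher and 1 lower, against 10.5% and 9.73% of all genes.

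The genes whose level was most like that of each of the 10 were ranked by Pearson's r of log2(CPM + 1) over 39 points, each a class or cluster in 1 library, among 5352 genes with at least 50 CPM in a point. Points of a library share its depth and its background RNA, so r is a description. Igf1 was most like Lsamp (0.89), Thy1 (0.86) and Gria3 (0.86), and Igf2 most like Fmnl2, Chd3 and Fgf7 (0.80 each). Igf1r had no close match, with Herpud2 (0.68), Pura (0.66) and Klf9 (0.64) at the top. Igf2r was most like Lrp5 (0.77), Airn (0.75) and Kcnk2 (0.71), and Airn overlaps Igf2r on the other strand. Igfbp2 was most like Ostn (0.86), Stc2 (0.83) and Dlx6 (0.82).

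For the other binding proteins, Igfbp3 was most like Susd2 (0.75), Lrrc32 (0.74) and Cxcl16 (0.72), and the genes most like Igfbp4 included Emilin2 (0.82) and Pdgfra (0.79). Igfbp5 was most like Tmem100 (0.73), S100a6 (0.71) and Sema3c (0.69), the last a marker used for the Pi16 cluster. Igfbp6 was most like Aspn (0.85), Ccdc80 (0.84) and Timp2 (0.84), and Igfbp7 most like Ier5l (0.76), Itpkb (0.73) and F2r (0.71). Among the 10 genes themselves, Igf1 and Igf2 had r = 0.65, Igf1 and Igfbp4 r = 0.62, and Igfbp5 and Igfbp7 r = -0.44.

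The genes lie at separate loci of mm10, as annotated by GENCODE vM21. Igf1 is at chr10:87858265-87937042 on the plus strand, Igf2 at chr7:142650766-142666816 on the minus strand, Igf1r at chr7:67952827-68233668 on the plus strand and Igf2r at chr17:12682406-12769664 on the minus strand. Igfbp2 (chr1:72824503-72852474, plus strand) and Igfbp5 (chr1:72857932-72874884, minus strand) are neighbours on chromosome 1. Igfbp3 is at chr11:7206086-7213923 on the minus strand, Igfbp4 at chr11:99041244-99054392 on the plus strand, Igfbp6 at chr15:102144362-102149511 on the plus strand and Igfbp7 at chr5:77349240-77408041 on the minus strand. Antisense genes overlap Igf1 (Igf1os), Igf2 (Igf2os), Igf2r (Airn) and Igfbp7 (Gm34648), and Polr2b also overlaps Igfbp7. The strand setting of the counting is not given in the sources used here, so a part of these counts could come from the overlapping gene.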

How the data were processed

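Raw UMI counts for each gene and cell barcode are the values the authors deposited. Per the file headers they were made by Cell Ranger 6.0.1, and the build is mm10 per the submitters' processing notes, which also name Seurat 4.3.0 without a role. From these deposited counts, barcodes were dropped when they held under 500 genes, under 1000 UMIs or over 10% mitochondrial UMIs, which left 11172, 7368 and 5945 cells for stromal day 5, stromal day 0 and myeloid day 9. Scrublet, run in scanpy 1.11.5, marked 986 doublets for day 5. It marked only 2 and 1 in the other libraries, where the 456 and 371 cells of highest score were removed instead, at 0.8% per 1000 barcodes.

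Cells were scaled to 10000 UMIs on a log scale. Clusters were found with Leiden (resolution 1.0) from 15 neighbours in 30 principal components of 2000 variable genes, which excluded the 10 genes and the 37 pathway genes. Both stromal libraries were clustered together with no integration, and mixed clusters were divided once more at resolution 0.5. Fibroblast states are the stromal clusters themselves, and the planned sub-clusters serve as an alternative. Names came from 36 marker lists, and clusters with too few or conflicting markers stayed unnamed. Each library's counts were added up by class, and intervals are exact Poisson or conditional binomial ones (scipy 1.17.1). They cover counting error only, and with 1 library per group there was no test between samples. The calculation was tested on simulated data with counting error alone, the error that the intervals assume, so it cannot speak to differences between libraries. The simulation used a higher count minimum than 20, and Igfbp2 in fibroblasts and tenocytes was below it. Of genes changed 1.5-fold, 71 of 71 in fibroblasts (12732 genes), 58 of 59 in tenocytes (9087) and 60 of 60 in osteoblasts (7685) had the right direction. The interval held the true ratio for 66, 54 and 60, and 25, 36 and 45 unchanged genes passed 1.5-fold.

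The genes and lists were chosen with earlier results of these data known. Named genes are the 10 genes; of the pathway list, those past 1.5-fold in fibroblasts and the highest per role; the 3 genes most like each of the 10; and markers that name a class. A gene that this rule names for Igfbp4 is not reported here. Alternatives were cell filters, doublets, resolution, scaling (edgeR 4.0.16, DESeq2 1.42.0), thinning, weighting and the count minimum.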

Additional observations from a re-analysis of the deposited data

Results flagged for a closer look

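Several day ratios (day 5 over day 0) went past 1.5-fold in opposite directions in different stromal classes or fibroblast clusters. These differences were not tested, since each day is 1 library. For Igf1 the ratio was 1.60 in the Prg4 lining cluster (18), against 0.57 in cluster 13, 0.66 in cluster 12 and 0.66 in cluster 21. For Igfbp2 it was 2.95 in fibroblasts and 3.52 in tenocytes, against 0.31 in osteoblasts, with 50, 18 and 62 counts at day 5 and 11, 5 and 192 at day 0. Of the 50 fibroblast counts, 27 were in the Saa3 cluster, and with equal weight for each sub-cluster the fibroblast ratio was 1.00. For Igfbp3 it was 2.66 in cluster 5, 2.23 in cluster 4, 1.76 in the lining cluster, 1.69 in cluster 13 and 1.67 in cluster 9, against 0.48 in the Pi16 cluster (2). The level of Igfbp3 in the Pi16 cluster was low on both days, as given above.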

How the results depend on the processing

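No paired analysis was possible because each group is 1 library. The number of the 10 genes past 1.5-fold between days in fibroblasts was 2; it was 1 after thinning, where 9 genes were measured, 0 with equal weight for each sub-cluster, 1 with equal weight for each sub-cluster at resolution 1.0, and 0 with equal weight for each cluster, a weighting chosen after seeing the data. It was 3, with Igfbp6 also lower, at resolutions 0.5 and 2.0, with the 10 genes kept among the variable genes, and with unnamed clusters 6, 8, 14, 15 and 16 added, a choice also made after seeing the data. Without the Saa3 cluster it was 2, but Igfbp2 and Igfbp3, both higher. The fibroblast ratio of Igf1 ranged from 0.69 to 0.79 over 17 alternatives and that of Igfbp5 from 0.60 to 0.77, below 1 in each; Igfbp4 ranged from 0.89 to 1.15, Igfbp6 from 0.62 to 0.96 and, over 16 alternatives, Igfbp2 from 1.00 to 3.99. The osteoblast ratio of Igfbp4 ranged from 0.90 to 1.25, and the tenocyte ratio of Igfbp3 from 0.47 to 1.63, with the direction turned in some. In tenocytes the number was 1; it was 4 with the looser cell filter, 2 at resolution 2.0 and 2 with the 10 genes kept among the variable genes. In osteoblasts it was 2; it was 1 with the stricter cell filter and 1 at resolution 0.5, and the Igfbp2 ratio there ranged from 0.30 to 0.41 over 12 alternatives. The count of pathway genes was 6, and 10 with no count minimum. The Igf1 ratio of Lyve1 Cd163 macrophages over other myeloid cells was 11.47; it was 8.97 with the stricter and 9.73 with the looser filter, 9.41 with no doublets removed, 9.45 with the 10 genes kept among the variable genes, 9.26 as a mean over cells and 7.97 after thinning. At resolution 0.5 no cluster had that name, so no value was given. Depth limits Igfbp2 in fibroblasts, with 61 counts over both days, and the causes of these changes were not tested.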
